A study of Bos taurus with 8 samples.

Results

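The miR-130, miR-301 and miR-454 family was followed in rumen fluid through the 5 bovine entries bta-miR-130a, bta-miR-130b, bta-miR-301a, bta-miR-301b and bta-miR-454, which were taken by name from the count tables of 8 small RNA libraries. These are 5 of the 565 entries that the tables list in all, and 4 of the 5 are among the 377 entries that reached 10 reads in some library. The libraries came from rumen fluid of 4 adult, non-lactating, ruminally cannulated Holstein cows, which were control animals of a parallel study. Each cow was sampled on day 7 of a forage diet with 0% concentrate (forage, n = 4) and again on day 1 of the high-grain diet with 65% concentrate (HG, n = 4), reached by a stepwise change of feed, each time 4 h after the morning feeding. The comparison asks whether the family in rumen fluid differs between the diets. The same 4 animals stand on both sides of it, no animal stayed on forage throughout, and the diet cannot be told apart from the time between the samplings.

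MicroRNAs are short RNAs that lower the output of messenger RNAs to which they pair, and the pairing rests mainly on a short stretch near their 5′ end, the seed. The members of this family carry the same seed on different hairpins, so they are thought to reach largely overlapping sets of target messages. In mammals miR-130a is known from endothelial cells, where it lowers growth-arresting homeobox factors, miR-130b and miR-130a both lower the adipogenic receptor PPARG, and miR-301a is known for raising NF-κB activity by lowering the repressor NKRF. No sequences are shown, because the tables used here give names and positions only.

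The 5 members come from 3 loci. On the assembly UMD3.1, bta-miR-454 lies at chr19:10339907-10339929 and bta-miR-301a at chr19:10349556-10349580, both on the minus strand with 9626 bases between them. Their genes MIR454 and MIR301A lie inside SKA2, which encodes a spindle and kinetochore protein, in the gene table of assembly ARS-UCD2.0, used here for names and neighbours alone. Bta-miR-130b (chr17:74100589-74100610) and bta-miR-301b (chr17:74100902-74100926) lie on the minus strand with 291 bases between them, and their genes are neighbours between LOC101905136 and SDF2L1, outside any listed gene. Bta-miR-130a (chr15:82197765-82197786, plus strand) stands by itself between the genes LOC112441661 and YPEL4.

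The libraries held 331864 to 522804 miRNA reads on the forage diet and 300116 to 390774 on the HG diet. One library, HG replicate 2, stood apart from the other 7. Over 78 bovine entries without shared reads, the chi-square ratio to its degrees of freedom was 23.7 to 28.7 for pairs with this library and 0.993 to 2.40 for all other pairs. The mean levels and fold changes of the members are therefore also given without it. The miRNAs of red blood cells, which include bta-miR-451, were abundant in each library, with 3 of 3 markers detected in all 8. Among the epithelial markers, 7 of 8 were detected and bta-miR-203 was listed in none.

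The family was a minor part of the miRNA reads. Its 5 members together held 884 reads over the 8 libraries, which is 0.0275% of the miRNA reads. Of these reads, 510 were in the forage libraries and 374 in the HG libraries. For scale, miR-148a, miR-148b and miR-152, whose seed overlaps that of the family shifted by a base, held 11950 reads (0.371%), and miR-19a and miR-19b, shifted the other way, held 4154 (0.129%). By total reads, bta-miR-454 ranked 147 of the 268 bovine entries kept, bta-miR-130b 191, bta-miR-130a 211 and bta-miR-301a 226. With so few reads, the interval from counting alone is wide for every member. The 95% Wilson intervals given here hold counting error alone, because copies made by PCR are counted as separate reads.

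Bta-miR-454 was the most abundant member and held 51.7% of the family reads. On the forage diet it had 65, 81, 67 and 40 reads in replicates 1 to 4, which is 132, 155, 147 and 121 reads per 1000000 miRNA reads (RPM). On the HG diet it had 45, 33, 57 and 69 reads, or 150, 98.2, 146 and 178 RPM. The lowest and the highest of the 8 levels were both HG libraries, and the diets overlapped. Mean levels were 138 ± 15.4 RPM (SD, n = 4) on forage and 143 ± 33.05 RPM (SD, n = 4) on HG, or 158 ± 17.4 RPM (SD, n = 3) on HG without replicate 2.

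Bta-miR-130b held 21.0% of the family reads. Its forage levels lay close together, at 58.7, 61.2, 61.4 and 69.3 RPM from 29, 32, 28 and 23 reads. On the HG diet it had 24, 16, 18 and 16 reads, or 80.0, 47.6, 46.1 and 41.2 RPM. HG replicate 1 was thus above all forage libraries, while the other HG libraries were below all of them. The means were 62.6 ± 4.61 RPM (SD, n = 4) on forage and 53.7 ± 17.7 RPM (SD, n = 4) on HG, or 55.8 ± 21.1 RPM (SD, n = 3) on HG without replicate 2. For HG replicate 1 the Wilson interval of 53.7 to 119 RPM covers all 4 forage levels.

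Bta-miR-130a had 24, 19, 14 and 21 reads on the forage diet, or 48.6, 36.3, 30.7 and 63.3 RPM. On the HG diet it had 11, 14, 20 and 11 reads, or 36.7, 41.6, 51.2 and 28.3 RPM. Levels overlapped widely, with means of 44.7 ± 14.4 RPM (SD, n = 4) and 39.5 ± 9.55 RPM (SD, n = 4), the latter 38.7 ± 11.6 RPM (SD, n = 3) without HG replicate 2. Its highest library was forage replicate 4 and its lowest HG replicate 4, which were taken as the same cow.

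Bta-miR-301a had 19, 12, 14 and 14 reads on the forage diet, or 38.4, 23.0, 30.7 and 42.2 RPM. The HG libraries held 6, 9, 11 and 11 reads, or 19.99, 26.8, 28.1 and 28.3 RPM. The means were 33.6 ± 8.54 RPM (SD, n = 4) and 25.8 ± 3.94 RPM (SD, n = 4), the latter 25.5 ± 4.77 RPM (SD, n = 3) without HG replicate 2. A forage library, replicate 2, lay within the HG range, so the groups overlapped.

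Bta-miR-301b, the partner of bta-miR-130b on chromosome 17, was the rarest member, with 11 reads in all. It had 2, 3 and 3 reads in forage replicates 1 to 3 and 3 reads in HG replicate 3. The other 4 libraries do not list it. The lowest of the 3535 counts in the tables is 2, so an entry that is not listed may have held a single read. Bta-miR-301b was below the filter on reads. In the alternative without a filter its fitted log2 fold change was −1.17 (edgeR adjusted p = 0.906), a value that depends on the prior count added to unlisted libraries.

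**Figure D1:**
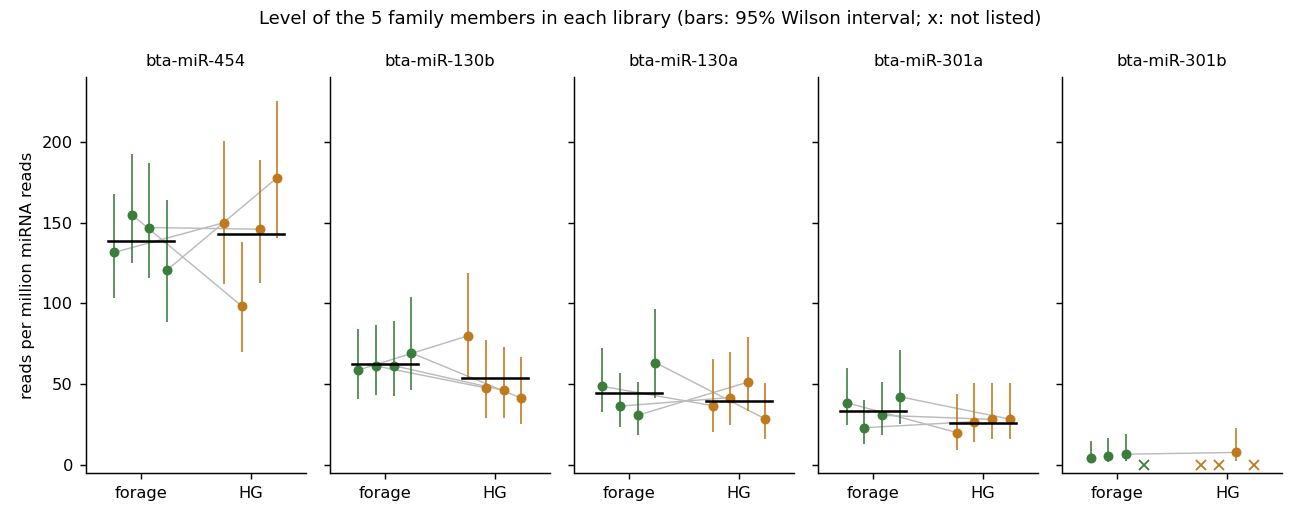
Level of each member in reads per 1000000 miRNA reads (vertical axis) by diet, with 1 point per library, its 95% Wilson interval and the mean of the diet as a black line (none for bta-miR-301b). Grey lines join libraries taken as the same cow and crosses mark libraries that do not list the entry. Bta-miR-454 spans 98.2 to 178 RPM and stays above the other members, and the diets overlap for each member.

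The order of the members was bta-miR-454, bta-miR-130b, bta-miR-130a, bta-miR-301a and bta-miR-301b. Since all are mature miRNAs of 22 to 25 bases, their RPM were compared without correction for length. Bta-miR-454 was above bta-miR-130b in 8 of 8 libraries, with 2.46 times the reads and no overlap of their ranges, and the Wilson intervals within a library overlapped in 3 of the 8. The step from bta-miR-130b to bta-miR-130a held in 7 of 8 libraries. That from bta-miR-130a to bta-miR-301a held in 6, with a tie in the other 2. For these 2 steps the Wilson intervals overlapped in all 8 libraries and the ranges overlapped too. Bta-miR-301a was above bta-miR-301b in 8 of 8 libraries, with 8.73 times the reads, and the intervals overlapped in 4 of the 8, where a library that does not list bta-miR-301b was taken at 0 reads.

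The share of the family reads held by bta-miR-454 ranged from 40.8% in forage replicate 4 to 64.5% in HG replicate 4. Bta-miR-130b ranged from 14.95% to 27.9%, bta-miR-130a from 10.3% to 21.4% and bta-miR-301a from 6.98% to 14.3%. The pooled make-up was 49.6% bta-miR-454 on the forage diet and 54.5% on the HG diet. This gap rested on replicate 4. In replicates 1 to 3 the share of bta-miR-454 was 46.8%, 55.1% and 53.2% on forage and 52.3%, 45.8% and 52.3% on HG.

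**Figure D2:**
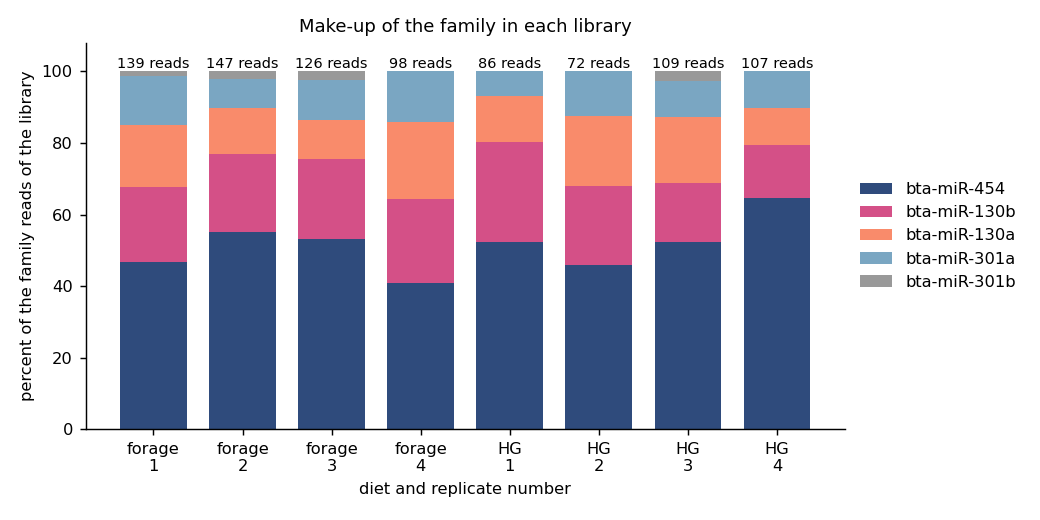
Percent of the family reads (vertical axis) held by each member in each library, by diet and replicate number, with the number of family reads above each bar. Bta-miR-454 holds 40.8% to 64.5% of a library's 72 to 147 family reads, and bta-miR-301b appears in 4 libraries.

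The members shared no reads with each other. For bta-miR-130a, bta-miR-130b and bta-miR-301b, the reads divided among the entries they map to equalled the full reads (134, 186 and 11), which leaves no read shared with any other entry. The 457 reads of bta-miR-454 and the 96 of bta-miR-301a matched, library by library, the reads of the human entries hsa-miR-454-3p and hsa-miR-301a-3p at the same loci, and were divided in equal parts, to 228.5 and 48. With divided reads the totals kept this order, but bta-miR-454 was above bta-miR-130b in 6 of 8 libraries, all but forage replicate 4 and HG replicate 1, and had 1.23 times its reads. On the same count bta-miR-130a had 2.79 times the reads of bta-miR-301a, and bta-miR-301a had 4.36 times those of bta-miR-301b. The hairpin of miR-301a also had reads of its other arm, hsa-miR-301a-5p (chr19:10349518-10349539), with 12 reads in 5 libraries, 2 to 4 in each, against 96 of the 3′ arm.

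Each member's reads fell into few distinct read sequences. Bta-miR-454 had 3 to 7 per library, bta-miR-130b 2 to 6, bta-miR-130a 2 to 4, bta-miR-301a 2 to 3, and bta-miR-301b 1 where listed. Summed over the libraries, this is 11.4 reads per distinct sequence for bta-miR-454 and 4.80 to 5.81 for bta-miR-130b, bta-miR-130a and bta-miR-301a. The median of the 113 bovine entries with 50 to 500 reads was 6.25.

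The spread of the 4 members kept between libraries was close to that of counting, though with so few reads a small added spread could be missed. The chi-square ratio to its degrees of freedom over the 8 libraries is near 1 where reads vary by counting alone. It was 0.702 for bta-miR-301a, 0.987 for bta-miR-130b, 1.24 for bta-miR-130a and 1.48 for bta-miR-454. For bta-miR-301b it was 1.28, from 11 reads with unlisted libraries taken at 0, which cannot measure spread. Without HG replicate 2 the ratio was 0.855 for bta-miR-454 and 1.44 for bta-miR-130a. The median of the 113 bovine entries with 50 to 500 reads was 1.55 over 8 libraries and 1.16 without HG replicate 2.

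None of the 4 members kept passed the test of diet. This two-sided test used edgeR (quasi-likelihood) with cow and diet in the model and Benjamini-Hochberg adjustment over 377 entries. At an adjusted p under 0.05 it called 0 of 4 members and 0 of 377 entries (0%), with 0 members and 9 entries at an unadjusted p under 0.05. DESeq2 called 0 entries, with 3 at an unadjusted p under 0.05. In levels scaled by TMM factors (counts per 1000000, CPM), bta-miR-454 had 89.9 ± 10.5 CPM on forage and 95.1 ± 17.4 CPM on HG (SD, n = 4, edgeR). This is a log2 fold change of 0.07 (standard error 0.20, 95% interval −0.42 to 0.57, edgeR adjusted p = 0.911), and it was higher on HG in 2 of 4 cows. The interval leaves room for between 0.747 and 1.48 times the forage level.

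Bta-miR-301a had the largest fitted difference of the 4 members, −0.30 on the log2 scale (standard error 0.35, 95% interval −1.16 to 0.56, edgeR adjusted p = 0.830), and was lower on HG in 3 of 4 cows. Bta-miR-130b had −0.20 (standard error 0.27, 95% interval −0.87 to 0.46, edgeR adjusted p = 0.830) and was lower on HG in 3 of 4 cows. Bta-miR-130a had −0.10 (standard error 0.39, 95% interval −1.05 to 0.86, edgeR adjusted p = 0.924), with 2 cows in each direction. For bta-miR-130a the interval includes a drop to 0.482 and a rise to 1.82 times the forage level, so a 2-fold drop was within what these libraries could not tell from no difference. The median log2 fold change was −0.15 over the 4 members, −0.09 over the 113 bovine entries with 50 to 500 reads, of which 63 were negative, and 0.03 over all 377 entries. The levels of the diets overlapped for 4 of 4 members, and for 15 of 377 entries (3.98%) they did not.

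Leaving out HG replicate 2, without the cow block, gave log2 fold changes of 0.17 for bta-miR-454, −0.18 for bta-miR-130a, −0.20 for bta-miR-130b and −0.36 for bta-miR-301a, with an adjusted p of at least 0.824 in edgeR. The directions of bta-miR-454 and bta-miR-130a rested on replicate 4. Without both libraries of that number they were −0.10 and 0.23, respectively.

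**Figure D3:**
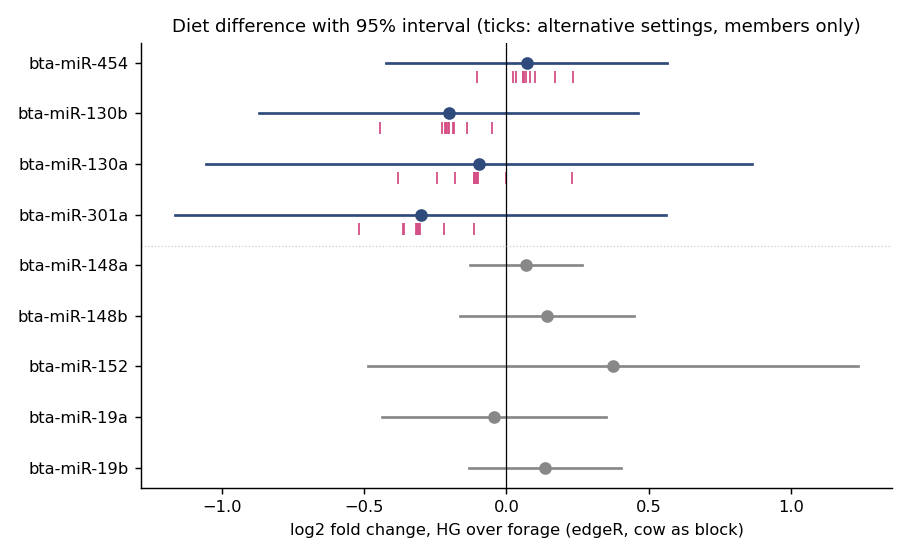
Log2 fold change of HG over forage (horizontal axis) from edgeR for the 4 members tested and, in grey, for 5 miRNAs with an overlapping seed, with the 95% interval as a line. Ticks under a member are its values in the alternative settings. All 9 intervals include 0, and ticks of bta-miR-454 and bta-miR-130a fall on both sides of it.

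The 5 miRNAs with an overlapping seed did not pass the test either (0 of 5). MiR-148a and miR-152 are known for lowering the DNA methyltransferase DNMT1. Their log2 fold changes were 0.07 for bta-miR-148a, 0.14 for bta-miR-148b, 0.37 for bta-miR-152, −0.04 for bta-miR-19a and 0.14 for bta-miR-19b, with adjusted p from 0.788 to 0.924 in edgeR. The standard errors were 0.08 to 0.35, against 0.20 to 0.39 for the family.

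The cow was tested in the same fit. Its test called 0 of 4 members and 0 of 377 entries (0%), with 0 members and 9 entries at an unadjusted p under 0.05, and DESeq2 called 0 entries with 6 at an unadjusted p under 0.05. The adjusted p of the members was 0.945 to 0.998 in edgeR, smallest for bta-miR-130b.

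The members of SKA2 were set against each other within each library, since a ratio does not depend on the library size. Bta-miR-454 had 3.42, 6.75, 4.79 and 2.86 reads per read of bta-miR-301a in forage replicates 1 to 4. In the HG libraries it had 7.50, 3.67, 5.18 and 6.27. The log2 ratio of bta-miR-301a to bta-miR-454 was −2.08 ± 0.548 (SD, n = 4) on forage and −2.45 ± 0.442 (SD, n = 4) on HG. It was lower on HG in 3 of 4 cows, with a mean difference of −0.38 (SD 0.965) and p = 0.375 in a two-sided exact sign-flip permutation test over the 4 cows, whose smallest possible p, 0.13, is above 0.05. Leaving out 1 cow at a time gave differences from −0.79 to −0.12. On chromosome 17, bta-miR-130b had 112 reads on forage against 8 of bta-miR-301b, and 74 against 3 on HG. A ratio could be formed in only 3 forage libraries and 1 HG library and was not tested.

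Levels of 2 members were also compared across the 8 libraries, on log2(CPM + 1), for all 6 pairs of the 4 members. The strongest relation was between bta-miR-130a and bta-miR-454, with Pearson's r = −0.80 (exact permutation p = 0.0171, adjusted over the 6 pairs 0.103) and Spearman's rho = −0.74 (exact permutation p = 0.0458, adjusted 0.173). It did not pass the adjustment. Without forage replicate 4 and HG replicate 4, the libraries farthest from the median of bta-miR-130a, r was −0.60, and without HG replicate 2 it was −0.87. The other 5 pairs had r from −0.57 to 0.57. Without the 2 farthest libraries, 2 of these turned in sign, bta-miR-130a with bta-miR-130b from 0.20 to −0.66 and bta-miR-130b with bta-miR-301a from −0.14 to 0.41. The 8 libraries come from 4 cows, and each diet has too few libraries for a value of its own.

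By the same scale, the bovine miRNAs most like each member over the 8 libraries were sought among 213 with at least 100 reads, as a description only. For bta-miR-454 they were bta-miR-2478 (r = 0.95), bta-miR-146b (r = 0.88) and bta-miR-2285aa (r = 0.87). For bta-miR-130b they were bta-miR-139 (r = 0.81), bta-miR-135a (r = 0.72) and bta-miR-450b (r = 0.71). For bta-miR-301a they were bta-miR-15a (r = 0.75), bta-miR-497 (r = 0.73) and bta-miR-1306 (r = 0.69), and for bta-miR-130a bta-miR-660 (r = 0.66), bta-miR-369-3p (r = 0.61) and bta-miR-135a (r = 0.59). Without HG replicate 2 these r were 0.82 to 0.94 for bta-miR-454, with bta-miR-2285aa (0.94) above bta-miR-2478 (0.92), and 0.73 to 0.82 for bta-miR-130b, 0.71 to 0.75 for bta-miR-301a and 0.60 to 0.74 for bta-miR-130a. The 8-library values are the highest of 213 each and rest on 6 to 81 reads of a member per library.

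In HG replicate 2 the family lay below the other libraries and the miRNAs with an overlapping seed lay above them, which, in a single library, was not tested. In this library the family had 72 reads, or 214 RPM (95% Wilson interval 170 to 270), and the other 7 libraries had 276 to 295 RPM. In TMM-scaled CPM, as used for the values that follow, the summed 4 members kept were closer to the others, at 160 CPM against 175 to 191 CPM, a log2 ratio of −0.17. Bta-miR-454 was at its lowest there, at 73.4 CPM against 78.1 to 116 CPM elsewhere, a log2 ratio of −0.37 to the mean of the other 7. Bta-miR-130a, bta-miR-130b and bta-miR-301a were within the range of the others, with log2 ratios of 0.19, −0.12 and 0.04. The summed family of bta-miR-148a, bta-miR-148b and bta-miR-152 was 0.47 higher on the log2 scale, with bta-miR-152 alone 1.53 higher at 447 CPM against 141 to 180 CPM, and the summed miR-19 pair was 0.46 higher.

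Marker miRNAs of several cell types moved in the same library. The sum of the 2 endothelial markers was 5739 CPM against 3170 to 3575 CPM in the other 7 libraries. The 7 epithelial markers detected summed to 23340 CPM against 14321 to 14726 CPM, and the 9 of stroma and smooth muscle, of which bta-miR-152 is itself a member, to 71995 CPM against 45599 to 49564 CPM. Above the range of the other libraries were 2 of 2 endothelial, 6 of 7 epithelial and 7 of 9 stromal markers. The sum of the 3 erythrocyte markers was 112031 CPM against 128480 to 134721 CPM, with 3 of 3 below the range of the others. The leukocyte markers were mixed, with 4 of 6 below and 2 of 6 above the range of the others and a sum of 13956 CPM against 14718 to 15173 CPM. The part of these shifts in the level of the family was not tested. In such a fluid, fewer cells of a type and less RNA per cell cannot be told apart.

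**Figure D4:**
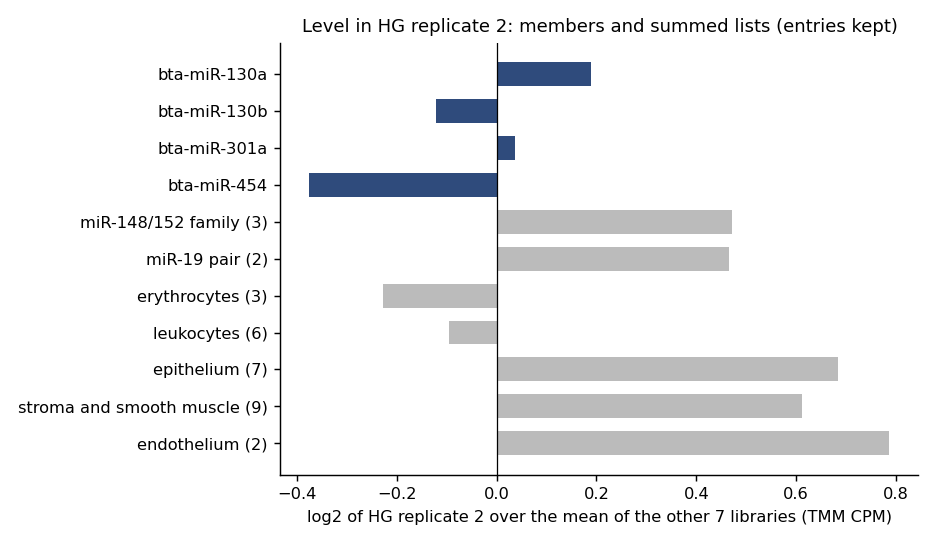
Log2 ratio of HG replicate 2 to the mean of the other 7 libraries (horizontal axis, TMM-scaled CPM) for the 4 members tested (blue) and for the summed entries of each list (grey), with the number of entries in brackets. Bta-miR-454 has the lowest bar at −0.37, and the lists of epithelium, stroma and endothelium reach 0.61 to 0.79.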

How the data were processed

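The authors trimmed adapters with Skewer, discarded short and low-quality reads and ran sRNAbench with Bowtie (2 mismatches) on UMD3.1 with bovine and human miRBase entries. They deposited read counts per mature entry, in which a shared read is counted in full at each, and the number of distinct sequences, also a count. Beside these they deposited an expected count with shared reads divided, RPM of all reads, and a score per 1000000 miRNA reads, from which the totals were recovered. A deposited table of normalized values was not used.

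The filter kept entries that reached 10 reads in some library. Cow and diet were fitted as in the study's model with edgeR 4.0.16 in R 4.3.3 (TMM, quasi-likelihood), and the fit was run on simulated data. The simulation held no cow effect and no library like HG replicate 2. Its fold changes were checked only for entries with more reads than any member had, so it does not speak to the members' depth. DESeq2 1.42.0 was an alternative. The expected counts were rounded to whole numbers for the edgeR fit on divided reads alone, and are given unrounded elsewhere. Other steps used Python 3.11.15. Libraries of the same number were taken as 1 cow on the strength of the study's repeated sampling and the shared numbers in the labels. Deviations of same-numbered libraries from their diet's mean correlated at −0.06 to 0.06, which does not show the pairing. P-values rest on 1 library per cow and diet. No 2 tables were identical. Among the pairs without HG replicate 2, 4 of 9 within a diet and 3 of 12 between diets did not differ beyond counting (chi-square p over 0.05). This cannot tell separate samples from repeat runs of a sample. All libraries were counted separately because the labels list them as separate samples.

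Described by rule were the 5 members, entries that hold their reads, 5 miRNAs with an overlapping seed and the 3 most similar bovine miRNAs per member, while bta-miR-301b, below the filter, was left out of this search. The members and lists were chosen with earlier results of these data known. The correlations between members, the chi-square ratios per member and the reads per distinct sequence were added after the data were seen.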

Additional observations from a re-analysis of the deposited data

Results flagged for a closer look

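In 22 groups of 4 libraries (the 4 members kept, the family, the ratio of bta-miR-301a to bta-miR-454 and the 5 miRNAs with an overlapping seed, on each diet), 3 had a library far from the rest by its gap to the nearest library relative to the range of the group (Dixon's 95% limit). Chance alone flags about 1 in 20. Bta-miR-130b in HG replicate 1 was at 80.0 RPM, against 41.2 to 47.6 RPM in the other HG libraries. The family as a whole in HG replicate 2 was at 214 RPM, against 276 to 287 RPM. Bta-miR-152 in HG replicate 2 was at 598 RPM, against 228 to 243 RPM. On the TMM-scaled CPM of the tests, only bta-miR-152 of these 3 stayed past the limit, at 447 CPM against 147 to 157 CPM. The family was at 160 CPM against 175 to 186 CPM, and bta-miR-130b at 51.8 CPM against 26.9 to 35.6 CPM.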

How the results depend on the processing

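The diet test called 0 entries in 11 of 12 alternatives and the cow test in 9 of 10. Leaving out 1 replicate number gave 0 to 2 entries for either test, and the 2 were bta-miR-2285ak-5p and, beside it, bta-miR-2285bh, without replicate 2. These 2 entries had equal levels in every library, 115 CPM in forage replicate 1 and 0 elsewhere, so both calls rest on a single library. In no alternative did a member pass, with adjusted p of 0.722 to 0.999 for the diet over 47 values of the 4 members kept. Without the replicate block the log2 fold changes were 0.08 (bta-miR-454), −0.11 (bta-miR-130a), −0.18 (bta-miR-130b) and −0.31 (bta-miR-301a), and the test called 0 entries, so the block changed no call. Of the 47 values, 45 kept their direction, and the other 2 were those without replicate 4 (0.23 for bta-miR-130a and −0.10 for bta-miR-454). Leaving out 1 replicate number gave −0.38 to 0.23 for bta-miR-130a, −0.45 to −0.05 for bta-miR-130b, −0.52 to −0.11 for bta-miR-301a and −0.10 to 0.23 for bta-miR-454. Bta-miR-301a could not be fitted with at least 10 reads in every library. The family's share of 0.0284% on forage and 0.0264% on HG became 0.0248% and 0.0227% with divided reads. In this setting 2 members count by equal parts with a human entry, and the miRNA total beneath the share is smaller too. Bta-miR-130a, whose reads are not shared, therefore rose from 0.00447% to 0.00562% on forage and from 0.00395% to 0.00499% on HG. Of all reads the family held 0.00491% on forage and 0.00368% on HG. The difference between diets in the ratio of bta-miR-301a to bta-miR-454 was −0.79 to −0.12 when 1 replicate number was left out, and dividing shared reads cannot change this ratio. Depth limits all of this, since a member had at most 81 reads in a library.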
